A study of Mus musculus with 6 samples.

Results

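Fat of diabetic NOD mice was compared with fat of normoglycemic NOD mice on 4 Affymetrix mouse arrays, 2 per group, out of 6 in the series. The arrays were chosen by the group and number in their titles, and every gene named by exactly 1 symbol in the probe annotation was included, 18193 genes in all. NOD is an inbred mouse strain that develops autoimmune diabetes without induction. The normoglycemic mice were females of 10 weeks with normal blood glucose. The diabetic mice had blood glucose over 300 mg/dl on 3 consecutive days. The remaining arrays came from NOD mice given alpha-1-antitrypsin (AAT), which inhibits serine proteases in blood, and labelled as stably reverted and independent of insulin; they entered the fit's estimate of the spread, the percentiles and mean signals by which probe sets were filtered and chosen, and the covariate fits, but not the difference itself. Age and sex are given in the labels for the normoglycemic group alone, so age and diabetes cannot be told apart, and the fat depot is not named. Whether replicate arrays stand for different mice is not stated, so a p-value here reflects the spread between the deposited samples, and that spread may be technical.

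In autoimmune diabetes the immune system destroys the insulin-producing beta cells of the pancreas. Insulin normally makes fat cells take up glucose, turn it into fatty acids through acetyl-CoA, and store these as triglyceride, while it holds back lipolysis and the transcripts of fasting. A pair of transcription factors carries much of its effect on these genes, SREBP-1c (from Srebf1), which also answers to sterols, and ChREBP (from Mlxipl), which answers to glucose. Fat tissue also holds macrophages, vessels, fibroblasts and blood, and each contributes RNA to a piece of whole tissue.

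The tissue label held on all 4 arrays. Adiponectin (Adipoq), secreted by fat cells, had signals of 41908 and 48729 on the normoglycemic arrays and 20191 and 48984 on the diabetic arrays, and the fatty acid carrier Fabp4 had 339475 and 155628 in normoglycemic against 104038 and 144806 in diabetic fat. Signal is the linear MAS5 intensity of a probe set, scaled by the authors so that the trimmed mean of each array is 500. Normoglycemic 1 stood apart from the other 3 arrays. Over genes it correlated at 0.837 with normoglycemic 2, and at 0.784 and 0.772 with the diabetic arrays, whereas normoglycemic 2 correlated at 0.899 with each diabetic array. The mean signal of the hybridisation controls was 128550 on normoglycemic 1, 48494 on normoglycemic 2, and 26969 and 47942 on the diabetic arrays. The median signal was 272 and 205 on the normoglycemic arrays and 228 and 201 on the diabetic arrays. Endothelial and contractile smooth muscle transcripts were uneven between the normoglycemic arrays, as the summed signal of 28 endothelial markers was 11137 and 69042 in normoglycemic against 49523 and 39849 in diabetic fat, and that of 19 smooth muscle genes was 21265 and 72718 in normoglycemic against 44462 and 33359.7 in diabetic fat. Signs of RNA quality moved with the groups. The 3'/5' signal ratio of the beta-actin control, which is raised when RNA is degraded or copied short, was 3.63 and 4.30 in normoglycemic against 15.2 and 15.5 in diabetic fat, and that of Gapdh was 0.910 and 0.946 against 2.46 and 4.63. The ratio of pyruvate carboxylase was 27.6 and 36.9 against 47.9 and 59.8, while that of the transferrin receptor, 0.868 and 36.4 against 5.005 and 2.52, did not separate the groups.

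**Figure D1:**
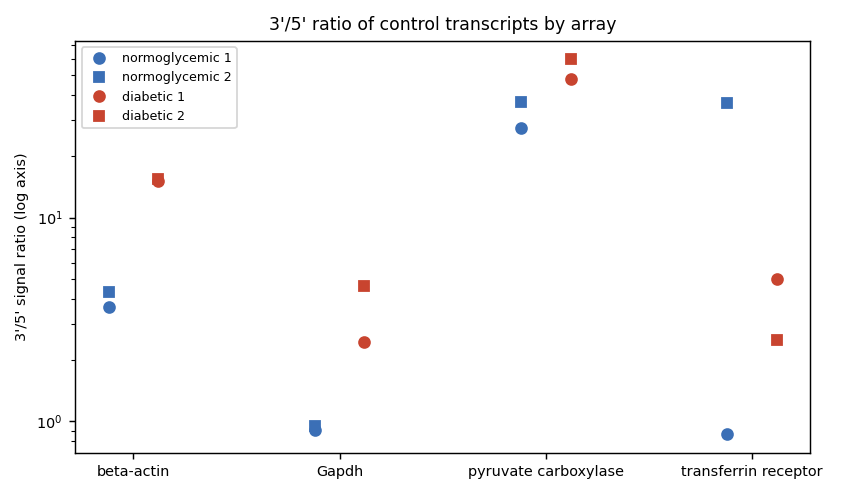
Ratio of the 3' to the 5' control probe set (log axis) for 4 control transcripts, 1 point per array; circles are replicate 1 and squares replicate 2, blue normoglycemic and red diabetic. For beta-actin, Gapdh and pyruvate carboxylase both diabetic arrays lie above both normoglycemic arrays; for the transferrin receptor they lie between them.

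No gene passed the test. Of the 18193 genes, 13058 had a mean signal over 164 and were tested, 5135 lay under that level, and 0 had an adjusted p under 0.05 (limma, Benjamini-Hochberg; percent called 0); the smallest adjusted p was 0.245. At an unadjusted limma p under 0.05 there were 1291 genes, 9.89% of those tested, 688 higher in diabetic fat (5.27%) and 603 lower (4.62%). The arrays of the groups did not overlap for 5835 genes (44.7%), 2639 with both diabetic arrays higher (20.2%) and 3196 with both lower (24.5%). At least a 2-fold gap between every diabetic and every normoglycemic array was present for 212 genes higher in diabetic fat (1.62%) and 198 lower (1.52%). Of all genes tested 46.4% had a difference above 0 and 53.6% below 0. These shares are the background against which each gene group is read below. The median log2 difference (diabetic minus normoglycemic, on the log2(signal + 75) scale, which understates differences of weak genes) was −0.06 over all genes tested and 0.07 after scaling each array to its median signal, and 90% of genes lay between −0.98 and 1.09. Each gene's difference carries its limma standard error (±) and rests on 2 arrays in each group (n = 2). The number of genes at an unadjusted p under 0.05 was 554 without normoglycemic 1, 1941 without normoglycemic 2, 747 without diabetic 1 and 767 without diabetic 2. With the beta-actin ratio as a covariate, 1286 genes (9.85% of those tested) were at an unadjusted p under 0.05. Only 74 of these were among the 1291, so that fit picked a largely different set of genes. Since the ratio differed far more between these groups than within them, that fit extrapolates, and its values are given beside the gene groups and single genes whose difference changed sign with it, where computed. For 1300 of the genes tested the mean signal lay at or under 164 in normoglycemic fat (407), diabetic fat (804) or both (89), so some weak genes passed the filter through the group where they were higher.

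**Figure D2:**
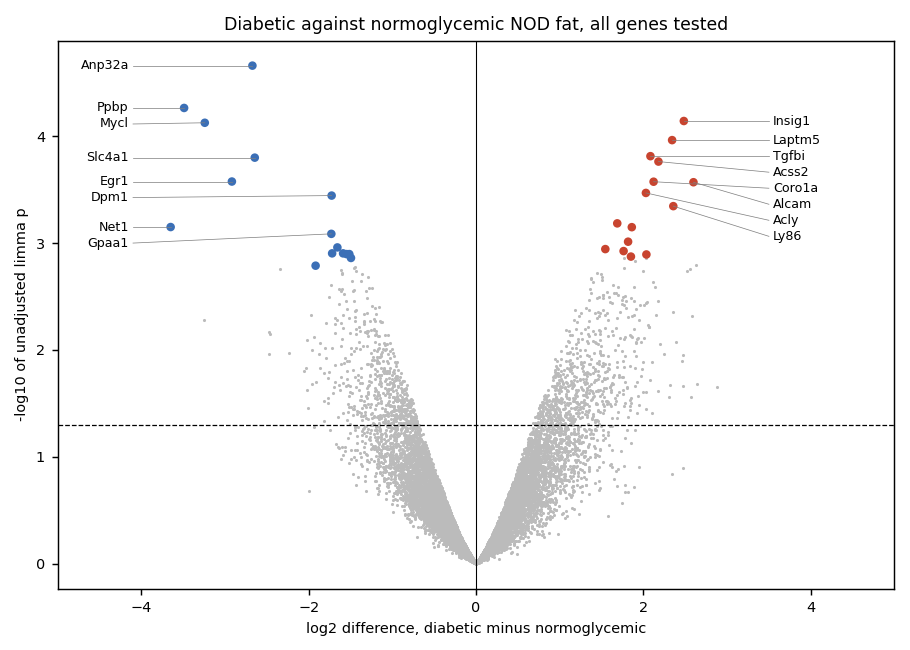
Log2 difference (diabetic minus normoglycemic) against −log10 of the unadjusted limma p for the 13058 genes tested; coloured points are the 15 genes per direction with the smallest p whose arrays do not overlap, and the first 8 of each are named. Both arms hold genes, and none above the dashed line (p of 0.05) passed after adjustment.

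Transcripts that regulate and carry out fat synthesis had higher signal in diabetic fat. Insig1, an ER membrane protein that retains SREBP and is itself an SREBP target, had signals of 1148 and 1093 on the normoglycemic arrays and 5389.7 and 8102 on the diabetic arrays. Both diabetic arrays were at least 4.69 times either normoglycemic array, and the difference was 2.48 ± 0.34 (limma adjusted p = 0.245). Srebf1, which encodes SREBP-1, had 2189 and 1889 in normoglycemic against 5445 and 5289.5 in diabetic fat and differed by 1.37 ± 0.32. Mlxipl, which encodes the glucose-responsive factor ChREBP, had 1632 and 967 in normoglycemic against 5438 and 5628 in diabetic fat, a difference of 2.07 ± 0.57. Pnpla3, a lipid droplet acyltransferase and a target of both factors, had 511 and 296 in normoglycemic against 1383 and 5077 in diabetic fat. Its arrays did not overlap either, and it differed by 2.56 ± 0.57. Insig2, the homologue of Insig1, went the other way, with 1788 and 1208 in normoglycemic against 563 and 923 in diabetic fat and a difference of −0.95 ± 0.36. Of the 13 regulators measured, 10 were higher and 3 lower, 4 at an unadjusted p under 0.05 higher and 1 lower, and the median was 0.28 (0.24 without diabetic 1 to 0.43 without diabetic 2).

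The enzymes that supply acetyl-CoA and build fatty acids from it were higher in 10 of 10 cases, with a median difference of 1.02. The median was 0.49 when all kept probe sets of a gene were averaged. For 5 of the 10 both diabetic arrays lay above both normoglycemic arrays (20.2% of all genes), and 3 were at an unadjusted p under 0.05 (5.27% of all genes). Acss2 makes acetyl-CoA from acetate, and its signals were 1122 and 880.3 on the normoglycemic arrays and 3958 and 5745 on the diabetic arrays. The groups were at least 3.53-fold apart, and the difference was 2.18 ± 0.34 (limma adjusted p = 0.282). Acly makes cytosolic acetyl-CoA from citrate and had 4414 and 3151 in normoglycemic against 13867 and 17252 in diabetic fat, a difference of 2.03 ± 0.35 (limma adjusted p = 0.362), although 2 of its 3 other probe sets differed the opposite way. Acaca, which carboxylates acetyl-CoA to malonyl-CoA in the committed step, had 14869 and 5136 in normoglycemic against 22561 and 25996 in diabetic fat and differed by 1.46 ± 0.50. Fasn, the fatty acid synthase, overlapped between the groups, because normoglycemic 1 (31130.0) lay slightly above diabetic 1 (30725), while normoglycemic 2 was at 6093 and diabetic 2 at 56987. Its difference was 1.60 ± 0.70, and it was 2.77 without normoglycemic 1 and 0.43 without normoglycemic 2. The NADPH-making enzymes also differed in how clear they were. Pgd, of the pentose phosphate pathway, had 2762 and 2545 in normoglycemic against 7691 and 15102 in diabetic fat and differed by 1.99 ± 0.45, while malic enzyme Me1, with 4635 and 1899.6 in normoglycemic against 4589 and 7067 in diabetic fat, overlapped. Without normoglycemic 1 the median of the acetyl-CoA and fatty acid enzymes was 1.81, and without normoglycemic 2 it was 0.56. Among the desaturases, Scd2 had 519 and 614 in normoglycemic against 1530.2 and 4864 in diabetic fat and differed by 2.14 ± 0.50; Scd1, the main desaturase of fat, had 123691 and 85512 in normoglycemic against 62412 and 103398 in diabetic fat, overlapped, and changed the sign of its difference from −0.36 to 0.24 under quantile scaling. The Scd genes are close in sequence, and how their probe sets share signal was not examined.

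Triglyceride assembly, which joins fatty acids to glycerol phosphate, was higher for 13 of 15 measured genes, and for 11 of them both diabetic arrays lay above both normoglycemic arrays, a pattern seen in 20.2% of all genes. Gpam, the mitochondrial enzyme that adds the first fatty acid, had 15498 and 16461 in normoglycemic against 27805 and 34354 in diabetic fat, a difference of 0.95 ± 0.40, and Gpat3, its ER counterpart, had 1397 and 2306 in normoglycemic against 4789 and 4274 in diabetic fat, a difference of 1.30 ± 0.53. Agpat2, which adds the second, had 2884 and 2119 on the normoglycemic arrays and 7501 and 10563 on the diabetic arrays. Its groups were at least 2.6-fold apart, with a difference of 1.82 ± 0.37 (limma adjusted p = 0.459). Dgat2, which adds the last, had 2888 and 3376 in normoglycemic against 6906 and 30799.8 in diabetic fat, so the diabetic arrays differed widely from each other while both exceeded the normoglycemic ones; it differed by 2.20 ± 0.65. The median of the list was 0.77 (0.49 without diabetic 2 to 1.03 without diabetic 1) and −0.75 with the beta-actin ratio as a covariate.

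Cholesterol synthesis shares the SREBP family with fatty acid synthesis. In this pathway 14 of 18 measured genes were higher (median 0.61, 0.25 without diabetic 2 to 0.77 without diabetic 1), 4 of them at an unadjusted p under 0.05. Cyp51 and Tm7sf2 averaged under 164 in normoglycemic fat and passed the filter through other arrays; of the other 16 genes 12 were higher. Lss, which closes the sterol ring, had 79.8 and 331 in normoglycemic against 509 and 665 in diabetic fat; Hmgcs1, which makes HMG-CoA, had 2253 and 3038 in normoglycemic against 5938 and 4332 in diabetic fat; and Ggps1, of the isoprenoid branch, had 843 and 1399 in normoglycemic against 2680.3 and 1980.0 in diabetic fat. Cyp51, the sterol demethylase, was weak, with 33.7 and 100.1 in normoglycemic against 466 and 462 in diabetic fat. None of their arrays overlapped between the groups. The differences were 1.97 ± 0.57 for Cyp51, 1.39 ± 0.51 for Lss, 0.94 ± 0.33 for Hmgcs1 and 1.03 ± 0.36 for Ggps1, but both other probe sets of Ggps1 differed the opposite way.

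Promoter sequence was examined because these genes had higher signal together. Of the genes tested, 10502 had a promoter in the RefSeq table of build GRCm38.p6, and the 250 bases before the annotated start were searched on both strands for CCAAT, the letters bound by NF-Y, a factor known to act beside SREBP. CCAAT was present for 15 of 15 cholesterol synthesis genes with an entry (100%), 7 of 10 acetyl-CoA and fatty acid genes (70%), 7 of 12 regulators (58.3%) and 4 of 9 triglyceride genes (44.4%), against 39.6% of all genes tested and 33.8% of all 32851 promoters. Genes were counted if any of their promoters held the letters. The sequences of Insig1 (chr5:28071162-28071411, plus strand), Acss2 (chr2:155517793-155518042, plus strand), Cyp51 (chr5:4104698-4104947, minus strand) and Lss (chr10:76531355-76531604, plus strand) are shown 5′ to 3′ along the gene, as examples from the lipogenic and sterol groups. They were not picked by rank, and Acly, Agpat2 and Srebf1, with smaller p-values than Lss, are not shown. Every example holds CCAAT, so the examples do not reflect the shares given above. Capitals mark CCAAT, which reads ATTGG where it lies on the opposite strand.
Insig1: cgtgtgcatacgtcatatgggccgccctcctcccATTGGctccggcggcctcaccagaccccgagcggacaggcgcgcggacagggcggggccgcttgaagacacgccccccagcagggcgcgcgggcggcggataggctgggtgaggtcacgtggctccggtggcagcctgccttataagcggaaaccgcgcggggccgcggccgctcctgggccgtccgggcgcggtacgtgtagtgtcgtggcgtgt
Acss2: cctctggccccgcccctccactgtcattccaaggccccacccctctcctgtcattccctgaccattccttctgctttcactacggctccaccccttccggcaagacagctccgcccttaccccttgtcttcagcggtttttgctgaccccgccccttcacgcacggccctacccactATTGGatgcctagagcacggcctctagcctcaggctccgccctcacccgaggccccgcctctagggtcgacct
Cyp51: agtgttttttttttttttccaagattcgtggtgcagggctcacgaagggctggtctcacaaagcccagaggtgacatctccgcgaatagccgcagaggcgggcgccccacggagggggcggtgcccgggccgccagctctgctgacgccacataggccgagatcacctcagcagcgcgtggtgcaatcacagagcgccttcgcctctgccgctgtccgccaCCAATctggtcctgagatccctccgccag
Lss: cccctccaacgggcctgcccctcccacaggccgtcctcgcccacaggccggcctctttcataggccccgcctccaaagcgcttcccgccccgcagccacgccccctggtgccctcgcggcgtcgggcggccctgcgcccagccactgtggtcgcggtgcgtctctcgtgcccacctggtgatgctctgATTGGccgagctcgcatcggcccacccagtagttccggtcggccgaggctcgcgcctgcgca
Each of these windows held CCAAT once, 216 bases before the start in Insig1, 73 in Acss2, 29 in Cyp51 and 62 in Lss, on the gene's own strand only in Cyp51. Other letters searched the same way were CACGTG, the E-box read by ChREBP and other factors (3 of 15 cholesterol genes and 2 of 10 fatty acid genes, against 9.46% of genes tested), GGGCGG, the Sp1 letters (13 of 15 and 6 of 10, against 60.6%) and TATAAA (0 of 15 and 1 of 10, against 8.95%). A match describes the letters and is not a measured binding site.

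**Figure D3:**
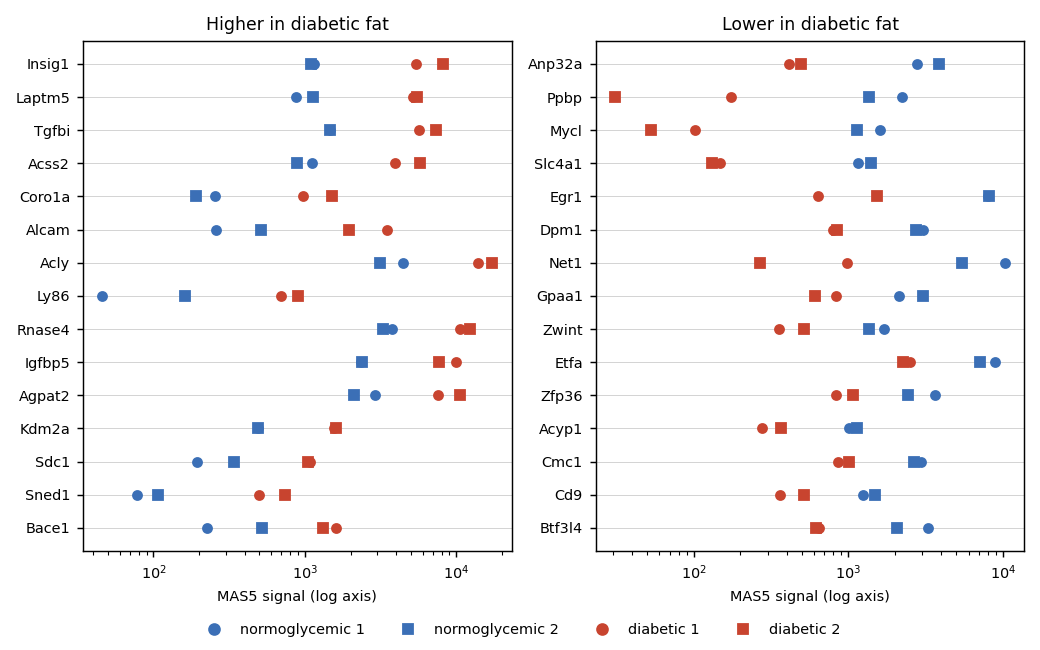
MAS5 signal (log axis) on each of the 4 arrays for the 15 genes per direction with the smallest limma p among genes whose arrays do not overlap; circles are replicate 1, squares replicate 2, blue normoglycemic and red diabetic. In every line the blue and red symbols are separate, as the choice of these genes requires, and the widest gaps are those of Mycl, Ppbp and Slc4a1. Each of these genes averaged under 164 in diabetic fat.

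Fuel use genes differed in direction by pathway, with lower signal for most fasting, beta-oxidation and branched-chain amino acid genes, higher signal for most of glycolysis, and mixed directions in the citric acid cycle and respiratory chain. Pdk4, the kinase that shuts pyruvate out of oxidation and is a textbook fasting transcript, had signals of 4986 and 4492 on the normoglycemic arrays and 1828 and 1732 on the diabetic arrays. Both diabetic arrays were at least 2.46-fold lower, with a difference of −1.37 ± 0.32 (limma adjusted p = 0.459). Pck1, which makes glycerol phosphate from pyruvate-derived carbon in fat, had 18205 and 24811 in normoglycemic against 5102 and 14139 in diabetic fat and differed by −1.31 ± 0.52; it was −0.59 without diabetic 1. Of 14 fasting genes measured 9 were lower, with a median of −0.28 that was 0.017 when all kept probe sets of a gene were averaged and 0.0015 with the beta-actin ratio as a covariate. In glycolysis 12 of 18 genes were higher (median 0.41, 0.041 without diabetic 2 to 0.58 without diabetic 1). Tpi1 had 4708 and 4295 in normoglycemic against 6862 and 13562 in diabetic fat and Pgk1 had 4822 and 4465 in normoglycemic against 11354 and 7648 in diabetic fat, differences of 1.09 ± 0.40 and 0.99 ± 0.37. Pfkfb3, which makes the activator of phosphofructokinase, was lower, with 3048 and 3307 in normoglycemic against 1814 and 1419 in diabetic fat and a difference of −0.95 ± 0.30.

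Of 20 beta-oxidation genes 13 had lower signal in diabetic fat, 5 of them at an unadjusted p under 0.05, and 7 had higher signal. Their median was −0.34 (−0.12 without normoglycemic 1 and −0.62 without normoglycemic 2), and with the beta-actin ratio as a covariate it was 0.37. Etfa, a subunit of the flavoprotein that collects electrons from acyl-CoA dehydrogenases, had 8919 and 7124 on the normoglycemic arrays and 2489 and 2251 on the diabetic arrays. The groups were at least 2.86-fold apart, and the difference was −1.72 ± 0.36 (limma adjusted p = 0.459), which was 0.62 with the covariate. Its partner subunit Etfb, named after its values were seen, overlapped between the groups, with 10531 and 8732 in normoglycemic against 8833 and 7409 in diabetic fat and a difference of −0.24 ± 0.33. Etfdh, which passes those electrons to ubiquinone, had 1283 and 1337 in normoglycemic against 495 and 552 in diabetic fat, a difference of −1.21 ± 0.34. Echs1, the short-chain hydratase of the cycle, had 6484 and 3937 in normoglycemic against 1288 and 1521 in diabetic fat, a difference of −1.80 ± 0.49. The isomerases for unsaturated chains were lower too, with differences of −1.10 ± 0.37 for Eci1 and −0.85 ± 0.31 for Eci2. The peroxisomal thiolase Acaa1a was higher, with 2984 and 2269 in normoglycemic against 4973 and 4924 in diabetic fat, and its other probe set differed the opposite way.

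Breakdown of the branched-chain amino acids leucine, isoleucine and valine, for which fat is a known site, was lower for 15 of 18 genes, and for 12 of them both diabetic arrays lay below both normoglycemic arrays, against 24.5% of all genes. Bckdhb, a subunit of the dehydrogenase that commits these amino acids, had 5512 and 4858 on the normoglycemic arrays and 1642 and 2576 on the diabetic arrays, a difference of −1.30 ± 0.36. The propionyl-CoA carboxylase subunits, which act at the end of the valine and isoleucine routes, were both lower. Pcca had 4293 and 2991 in normoglycemic against 1243 and 1936 in diabetic fat and Pccb had 2655 and 2226 in normoglycemic against 862 and 1288 in diabetic fat, differences of −1.17 ± 0.37 and −1.15 ± 0.36. Hibch and Aldh6a1 act in the valine route. Hibch had 12678 and 8812 in normoglycemic against 3924 and 6710.0 in diabetic fat, and Aldh6a1 had 29948 and 19041 in normoglycemic against 10424 and 14679.5 in diabetic fat, with no overlap for either. The median was −0.58 (−0.79 without diabetic 2 to −0.32 without normoglycemic 1), and it was 0.65 with the beta-actin ratio as a covariate. In the citric acid cycle 10 of 23 genes were higher and 13 lower, with a median of −0.17 that was 0.19 without normoglycemic 1. Respiratory chain genes were mixed in direction. In complex I 18 of 34 were higher, whereas 22 of 38 genes of complexes III and IV and ATP synthase were lower, among them the ATP synthase genes Atp5c1 (−1.22 ± 0.37), Atp5b (−1.04 ± 0.41) and Atp5g1 (−0.95 ± 0.32).

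Insulin signalling genes were mixed, 13 of 21 higher and 8 lower (median 0.11, and −0.40 with the beta-actin ratio as a covariate). The insulin-responsive glucose transporter Slc2a4 had signals of 1494 and 1369.8 on the normoglycemic arrays and 2335 and 4046 on the diabetic arrays, with no overlap and a difference of 1.07 ± 0.46 (limma adjusted p = 0.504); with the beta-actin ratio as a covariate it was −2.27. The insulin receptor Insr had 1233 and 2324 in normoglycemic against 3769 and 3242 in diabetic fat, a difference of 1.01 ± 0.51 that was −3.82 with that covariate, and both of its other probe sets differed the opposite way. Irs1 had 2256 and 1942 in normoglycemic against 1821 and 2335 in diabetic fat and Irs2 had 178 and 619 in normoglycemic against 809 and 473 in diabetic fat, and both overlapped. Gsk3b, a kinase that insulin inhibits, had 2469 and 1571 in normoglycemic against 1058 and 893 in diabetic fat, a difference of −0.97 ± 0.37, with 3 of its 5 other probe sets opposite. Foxo1, the transcription factor that insulin excludes from the nucleus, had 1972 and 2859.9 in normoglycemic against 3761 and 4197 in diabetic fat and did not overlap. Another probe set of Foxo1 differed the opposite way, by −0.64.

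The fat cell's own markers showed no common direction, 4 of 8 higher and 4 lower. Pparg, the master factor of fat cells, had signals of 2151 and 2865 on the normoglycemic arrays and 927 and 1735 on the diabetic arrays, with no overlap and a difference of −0.93 ± 0.37 (limma adjusted p = 0.495). Cebpd, an early adipogenic factor, had 2994 and 2088 in normoglycemic against 804 and 934 in diabetic fat and differed by −1.45 ± 0.32. Abhd5, the coactivator of triglyceride lipase on lipid droplets, had 5401 and 3282 in normoglycemic against 1321 and 1388 in diabetic fat, a difference of −1.58 ± 0.41. These 3 were lower on both diabetic arrays, but most measured members of related lists were higher. Of the adipogenic transcription factors 12 of 20 were higher (median 0.07, −0.10 without normoglycemic 1). Of the lipid droplet and lipolysis genes 11 of 15 were higher (median 0.25, −0.22 without normoglycemic 1). Leptin (Lep), secreted in proportion to fat mass, was 255 and 1299 in normoglycemic against 18.7 and 9408 in diabetic fat, so the diabetic arrays held both the lowest and the highest of the 4 signals. The median of the fat cell markers followed the diabetic arrays, at 0.30 without diabetic 1 and −1.14 without diabetic 2. Adipoq, Lpl (69009 and 74330.5 in normoglycemic against 61149 and 100873 in diabetic fat) and Serpina3n (478 and 1070.2 in normoglycemic against 296 and 3108 in diabetic fat) overlapped. Nrg4, a growth factor secreted by fat, had 1881 and 2085 in normoglycemic against 1036 and 1033 in diabetic fat and differed by −0.89 ± 0.36. Of the adipokines measured 7 of 12 were higher (median 0.29, −0.51 without diabetic 2). Among inflammatory signals, Tnf, Il6 and Ccl2 lay under the mean-signal filter; Tnf had 79.3 and 31.7 in normoglycemic against 25.6 and 100.2 in diabetic fat.

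Most pan-leukocyte and macrophage genes measured had higher signal in diabetic fat. The neutrophil, dendritic cell and mast cell lists held genes in both directions. In a piece of tissue more cells of a type and more RNA per cell cannot be told apart. Laptm5, a lysosomal membrane protein of blood-derived cells, had signals of 872 and 1126 on the normoglycemic arrays and 5178 and 5500.4 on the diabetic arrays. Both diabetic arrays were at least 4.6 times either normoglycemic array, with a difference of 2.34 ± 0.34 (limma adjusted p = 0.282); 2 of its 4 other probe sets differed the opposite way. Coro1a, an actin-binding protein of leukocytes, had 253 and 191 in normoglycemic against 968 and 1509.9 in diabetic fat, a difference of 2.12 ± 0.35 (limma adjusted p = 0.321). Ptprc (CD45), on all leukocytes, had 311 and 113 in normoglycemic against 583 and 1430.2 in diabetic fat, a difference of 1.89 ± 0.49. Ly86, the partner of the receptor CD180 on B cells and macrophages, had 46.1 and 162 in normoglycemic against 700.0 and 898 in diabetic fat, a difference of 2.36 ± 0.42. Of 29 pan-leukocyte genes measured 25 were higher, 6 of them at an unadjusted p under 0.05, with a median of 0.33 (0.065 without diabetic 2 to 0.80 without diabetic 1). The summed signal of the pan-leukocyte markers was 13334 and 11079 in normoglycemic against 17443 and 26978 in diabetic fat.

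Macrophage markers had the same direction. Clec10a, a lectin of resident macrophages and dendritic cells, had 407 and 540.0 on the normoglycemic arrays and 3376 and 3189.7 on the diabetic arrays, and lay at least 5.91-fold higher in diabetic fat, a log2 difference of 2.62 ± 0.57. Csf1r, the receptor macrophages need to survive, had 1566 and 1680.2 in normoglycemic against 5459.6 and 7004 in diabetic fat, a difference of 1.88 ± 0.45. C1qb and C1qc encode chains of the protein that starts the classical complement cascade. C1qb had 766 and 1359 in normoglycemic against 2896 and 7560.1 in diabetic fat, and C1qc had 112 and 334 in normoglycemic against 509 and 1725 in diabetic fat, with no overlap for either. The scavenger receptor Stab1 had 111 and 1181 in normoglycemic against 3192 and 3769 in diabetic fat, a difference of 2.88 ± 1.03 that was 1.5 without normoglycemic 1. The mannose receptor Mrc1 had 547 and 493 in normoglycemic against 872 and 2399.8 in diabetic fat, a difference of 1.36 ± 0.49 that was 0.67 without diabetic 2. F13a1, a coagulation factor subunit made by resident macrophages, had 2237 and 2410.0 in normoglycemic against 7718 and 10109 in diabetic fat, a difference of 1.89 ± 0.41. In all 18 of 21 macrophage genes were higher (median 0.49, 0.12 without normoglycemic 2 and 0.37 without diabetic 2), and the summed signal of the 25 on the array was 14234 and 12904 in normoglycemic against 26778 and 41186 in diabetic fat. Of the genes of alternative activation 8 of 12 were higher (median 0.87, 0.19 without normoglycemic 1). Of those of classical activation 8 of 10 were lower (median −0.19), 0 of them at an unadjusted p under 0.05. Ccl5 of that list was higher at that level, but weak, with 50.1 and 239 in normoglycemic against 308 and 887 in diabetic fat. For 1 of the 10 both diabetic arrays lay below both normoglycemic arrays, against 24.5% of all genes. Other leukocyte lists also had more members lower. Of the neutrophil genes measured 6 of 9 were lower (median −0.43), of the dendritic cell genes 7 of 10 (median −0.20), and of the mast cell and eosinophil genes 4 of 6 (median −0.21, 0.072 without normoglycemic 1). Over all genes tested 53.6% were lower. The neutrophil genes with a 2-fold gap between every pair of arrays, Csf3r and S100a8, were higher, but averaged under 164 in normoglycemic fat. Among genes above 164 in both groups, 4 of 5 neutrophil, 5 of 8 dendritic cell and 3 of 5 mast cell and eosinophil genes were lower. Lymphocyte markers overlapped, the summed signal of 33 T and NK cell genes being 11885 and 5587 in normoglycemic against 7000.1 and 8239 in diabetic fat and that of 23 B and plasma cell genes 24211 and 24448 in normoglycemic against 21751 and 26907 in diabetic fat. Irf4, a factor of lymphocytes and of alternatively activated macrophages, was lower, with 2351 and 964 in normoglycemic against 355 and 119 in diabetic fat. Sdc1, another member of the B and plasma cell list, was higher, with 193 and 343 in normoglycemic against 1074 and 1047 in diabetic fat. In that list 6 of 16 measured genes were higher and 10 lower.

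Lysosomal genes, many of them abundant in macrophages, were higher for 26 of 31 genes. Cathepsin S (Ctss), the protease that trims antigen chains in antigen-presenting cells, had 938 and 816 on the normoglycemic arrays and 1757 and 3577 on the diabetic arrays, a difference of 1.45 ± 0.38. Progranulin (Grn) had 2993 and 7166 in normoglycemic against 13980.0 and 17822 in diabetic fat, and the membrane protein Lamp2 had 1798 and 3708 in normoglycemic against 5871 and 6869.7 in diabetic fat, differences of 1.75 ± 0.55 and 1.27 ± 0.41. The vacuolar ATPase, which acidifies lysosomes, held genes in both directions. Atp6v0b had 967 and 1863 in normoglycemic against 4768 and 4686 in diabetic fat and was higher (1.76 ± 0.43), while Atp6v1f had 3904 and 4659 in normoglycemic against 1727 and 2505 in diabetic fat and was lower (−1.01 ± 0.34). The median of the lysosomal genes was 0.70 (0.29 without normoglycemic 1 to 1.07 without diabetic 1) and −1.76 with the beta-actin ratio as a covariate.

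Of 19 autophagy genes 12 had lower signal in diabetic fat and 7 higher, with a median of −0.19. Members of the ATG8 family, small proteins that coat autophagosome membranes, differed in direction. Gabarapl1 had 8209.8 and 5321 on the normoglycemic arrays and 2654 and 2083 on the diabetic arrays, a difference of −1.46 ± 0.36. Gabarapl2, Gabarap and Map1lc3b differed by −1.16 ± 0.34, −0.97 ± 0.33 and −1.27 ± 0.43, and none of these 4 overlapped between groups. Map1lc3a, named after its values were seen, was higher, with 6799 and 9432 in normoglycemic against 10989 and 17490 in diabetic fat and a difference of 0.79 ± 0.46. Atg3, which attaches these proteins to lipid, differed by −0.92 ± 0.40. The proteasome, the other main route of protein breakdown, was lower for 22 of 34 constitutive subunits, 8 of them at an unadjusted p under 0.05 and none higher at that level. Psmd7 had 1319.6 and 953 in normoglycemic against 457 and 219 in diabetic fat and Psmd8 had 2645 and 2685 in normoglycemic against 1167 and 1288 in diabetic fat, both subunits of the regulatory cap, although the other probe set of Psmd7 differed the opposite way. The proteasome median of −0.21 was −0.079 after median scaling and 0.015 with the beta-actin ratio as a covariate, and that of autophagy was 0.38 with the covariate.

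Most ribosomal protein genes, cytosolic and mitochondrial, had lower signal in diabetic fat. Cytosolic ribosomal protein genes were lower in 42 of 47 cases, and in 32 both diabetic arrays were below both normoglycemic arrays (24.5% of all genes), although 3 of the 47 were at an unadjusted p under 0.05 (4.62% of all genes). Rps2 had 28734 and 30971 on the normoglycemic arrays and 6237 and 12266 on the diabetic arrays, a difference of −1.76 ± 0.43. Rplp0, of the ribosomal stalk, had 50141 and 42323 in normoglycemic against 22457 and 21728 in diabetic fat, a difference of −1.06 ± 0.47. The mitochondrial ribosome was lower in 59 of 73 genes, 12 at an unadjusted p under 0.05 against 0 higher. Mrpl32 had 2644 and 2875 in normoglycemic against 1244 and 1266 in diabetic fat and Mrpl42 had 2464 and 2436 in normoglycemic against 593 and 1130.4 in diabetic fat, differences of −1.09 ± 0.32 and −1.49 ± 0.45. The medians were −0.44 for cytosolic and −0.34 for mitochondrial ribosomal proteins (−0.56 without diabetic 1 to −0.33 without diabetic 2, and −0.53 without diabetic 2 to −0.21 without normoglycemic 1), and 1.49 and 0.75 with the beta-actin ratio as a covariate. Ribosomal protein genes have many pseudogenes, so their probe sets can share signal. Translation factors were lower in 38 of 55 cases, led by Eif4a2, an RNA helicase of initiation, with 23794 and 22661 in normoglycemic against 7239.6 and 7818 in diabetic fat.

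**Figure D4:**
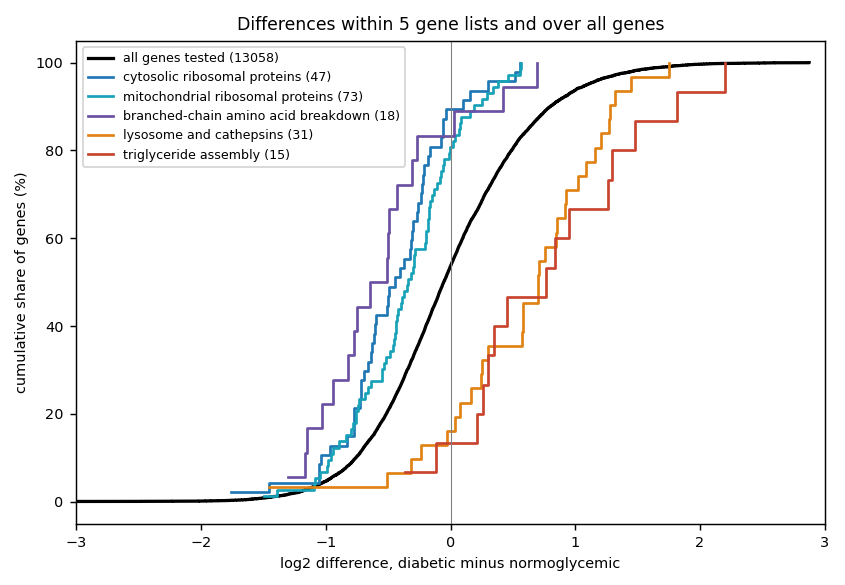
Cumulative share of genes (%) by log2 difference (diabetic minus normoglycemic) for all 13058 genes tested (black) and 5 gene lists, with the number of measured genes in brackets. The curves of both ribosomal lists and of branched-chain amino acid breakdown lie left of all genes over most of the range, and those of lysosomal and triglyceride genes lie right of it.

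Most stromal and matrix genes measured had higher signal in diabetic fat. Tgfbi, a matrix protein induced by TGF-beta, had signals of 1472 and 1454 on the normoglycemic arrays and 5692 and 7295 on the diabetic arrays; its groups were at least 3.87-fold apart and its 3 other probe sets had the same direction. The difference was 2.08 ± 0.32 (limma adjusted p = 0.282). Fibromodulin (Fmod), a collagen-binding proteoglycan, had 417 and 308 in normoglycemic against 1288 and 1529 in diabetic fat, a difference of 1.77 ± 0.45, with all 5 of its other probe sets in the same direction. Loxl1, which cross-links elastin, and the gelatinase Mmp2 differed by 1.11 ± 0.31 and 1.10 ± 0.32. Of the matrix remodelling genes 35 of 45 were higher, and of the collagen chains 21 of 30. Col1a1 had 322 and 621 in normoglycemic against 1005 and 1625 in diabetic fat, Col6a1 had 2016 and 2655 in normoglycemic against 3601 and 9336 in diabetic fat and Col5a3 had 752 and 1257 in normoglycemic against 2251 and 5335 in diabetic fat; none of these overlapped. Pericyte and fibroblast markers were higher in 19 of 23 cases (median 0.65, 0.42 without diabetic 2 to 0.76 without normoglycemic 2), including Pdgfrb, the growth factor receptor of pericytes (699.5 and 2280.0 in normoglycemic against 7489.6 and 3016 in diabetic fat), and Fap, of activated fibroblasts (145 and 502 in normoglycemic against 1109 and 997 in diabetic fat). Their summed signal overlapped between the groups, with 158179 and 204115 in normoglycemic against 159425 and 267859 in diabetic fat. Diabetic 2 carried much of the matrix signal, since without it the median of the remodelling genes was 0.078 instead of 0.45 and that of the collagens 0.061 instead of 0.47. With the beta-actin ratio as a covariate the medians were −1.17 for matrix remodelling and −0.24 for pericytes and fibroblasts.

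Most red cell and platelet genes measured had lower signal in diabetic fat. Slc4a1, the band 3 anion exchanger of red cells, had 1146 and 1397 on the normoglycemic arrays and 148 and 131 on the diabetic arrays, at least 7.76-fold lower, with a difference of −2.64 ± 0.41 (limma adjusted p = 0.282). Car2, a carbonic anhydrase of red cells, had 779 and 1212 in normoglycemic against 285 and 253 in diabetic fat. Bpgm, which makes the ligand that lowers the oxygen affinity of haemoglobin, had 992 and 3023 in normoglycemic against 473 and 451 in diabetic fat. The beta-globin Hbb-b2 had 1027 and 2384 in normoglycemic against 199.9 and 33.6 in diabetic fat; it has near-identical copies, so its signal is uncertain, and its other probe set differed the opposite way. Ppbp, a chemokine stored in platelets, had 2237 and 1362 on the normoglycemic arrays and 174 and 31.0 on the diabetic arrays. It was at least 7.85-fold lower and differed by −3.49 ± 0.47 (limma adjusted p = 0.245). Clec1b, a platelet receptor, had 765 and 656 in normoglycemic against 323 and 14.6 in diabetic fat, while Vwf, which platelets share with endothelium, was higher, with 161 and 1228 in normoglycemic against 1945 and 1705 in diabetic fat. Of the erythroid genes measured 11 of 13 were lower and of the platelet genes 13 of 15, with medians of −0.83 and −0.48, and −0.55 and −0.13 without normoglycemic 1. Of these, 4 erythroid genes (Slc4a1 and Hbb-b2 among them) and 3 platelet genes (Ppbp among them) averaged under 164 in diabetic fat only. Of the 9 erythroid and 10 platelet genes above 164 in both groups, 7 and 9 were lower. The summed signal of 20 erythroid markers was 15735 and 24356 in normoglycemic against 9272 and 8942 in diabetic fat. The blood content of the samples is not given in the labels. The platelet median was 1.25 with the beta-actin ratio as a covariate.

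Immediate early genes are transcribed within minutes of a stimulus. Those of the Egr, Nr4a and feedback list, called immediate early genes here, were lower in 19 of 22 cases. Egr1, a zinc finger factor, had 7993 and 8115 on the normoglycemic arrays and 640.4 and 1541 on the diabetic arrays, at least 5.19-fold lower, a log2 difference of −2.92 ± 0.49 (limma adjusted p = 0.321). Zfp36, which speeds decay of inflammatory mRNAs, had 3658 and 2447 in normoglycemic against 837 and 1066 in diabetic fat, a difference of −1.59 ± 0.33. Dusp1, a phosphatase of stress kinases, had 3146 and 5869.8 in normoglycemic against 1401 and 1797 in diabetic fat. Ier2 and Myc, both induced by growth factors, were lower too. Ier2 had 1811 and 1455 in normoglycemic against 538 and 881 in diabetic fat, and Myc had 527 and 465 in normoglycemic against 155 and 150.1 in diabetic fat. None of these 5 overlapped. For 8 of the 22 genes both diabetic arrays lay below both normoglycemic arrays, against 24.5% of all genes, and for 0 they lay above, against 20.2%. Myc averaged under 164 in diabetic fat, and 2 of the 22 genes lay under that level in diabetic fat only. Of the 20 immediate early genes above it in both groups, 17 were lower. The median was −0.44 (−0.90 without normoglycemic 1 to −0.30 without diabetic 1). The CArG box, read by the serum response factor of such genes, was found within the 250 upstream bases of 1 of 17 of them with an entry (5.88%), against 1.39% of genes tested. The AP-1 family, listed apart, was mixed, 4 of 9 measured genes higher and 5 lower (median −0.32, −0.0016 without normoglycemic 2). Fos was lower, with 2383 and 2200 in normoglycemic against 190 and 751 in diabetic fat. Jund was higher, with 2929 and 4701 in normoglycemic against 6743 and 9169 in diabetic fat.

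Antioxidant genes were lower in 21 of 31 cases. Glutathione peroxidase Gpx1, which reduces hydrogen peroxide, had signals of 42164 and 40010.0 on the normoglycemic arrays and 12565 and 17855 on the diabetic arrays, a difference of −1.45 ± 0.39. Prdx3, the mitochondrial peroxiredoxin, had 3641 and 2736 in normoglycemic against 1598 and 1442 in diabetic fat, a difference of −1.02 ± 0.37. Gclm, the regulatory subunit of glutathione synthesis, had 788 and 534 in normoglycemic against 305 and 36.9 in diabetic fat, and the glutathione transferase Gsta3 had 7102 and 1387 in normoglycemic against 514 and 732 in diabetic fat, so that normoglycemic 1 alone was far above the rest for Gsta3; without it the difference was −1.08 instead of −2.23. The median was −0.45 (−0.60 without diabetic 2 to −0.23 without diabetic 1) and 0.053 with the beta-actin ratio as a covariate. Cell cycle genes were lower in 18 of 28 cases, among them Pcna, the replication clamp, with 1512 and 1854 in normoglycemic against 829 and 736 in diabetic fat, and Ube2c, of mitotic exit, with 359 and 313 in normoglycemic against 131 and 86.9 in diabetic fat. However, 7 of the 28, Ube2c among them, averaged under 164 in diabetic fat only. The other 21 cell cycle genes showed no common direction, 11 lower and 10 higher. ER chaperones were higher in 17 of 20 cases, led by calreticulin (Calr), with 1187 and 3478 in normoglycemic against 5119 and 11911 in diabetic fat. The chaperone median was 0.50 (0.13 without normoglycemic 1 to 0.91 without diabetic 1).

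Several of the genes with the smallest p belonged to none of these groups. Anp32a, a nuclear phosphoprotein and phosphatase inhibitor, had the smallest p of all, with signals of 2789 and 3854 on the normoglycemic arrays and 414 and 491 on the diabetic arrays. Both diabetic arrays were at least 5.68-fold lower, and the difference was −2.67 ± 0.32 (limma adjusted p = 0.245). The 2 other probe sets of Anp32a had the same direction, with smaller differences of −0.10 and −0.74. Mycl, a Myc family transcription factor, had 1606 and 1137 on the normoglycemic arrays and 102 and 53.2 on the diabetic arrays. It was at least 11.1-fold lower, a log2 difference of −3.24 ± 0.45 (limma adjusted p = 0.245), and it was 0.50 with the beta-actin ratio as a covariate. Both other probe sets of Mycl had the same direction, but their differences were −0.08 and −1.28. The Mycl signal given averaged under 164 in diabetic fat. Net1, an activator of RhoA, had 10293 and 5416 in normoglycemic against 973 and 269.6 in diabetic fat, a difference of −3.65 ± 0.70, which was 2.48 with that covariate. Dpm1, which makes the mannose donor for GPI anchors and glycosylation, had 3053 and 2738 in normoglycemic against 794 and 849.9 in diabetic fat, and Gpaa1, which attaches GPI anchors to proteins, had 2124 and 3033 in normoglycemic against 835 and 608 in diabetic fat. For Gpaa1 both other probe sets differed the opposite way, and the mean of its probe sets differed by 0.25.

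The remaining lower genes lay closer together. Zwint, a kinetochore protein, had 1707 and 1353 in normoglycemic against 357 and 517 in diabetic fat, with 2 of 5 other probe sets opposite. Cd9, a tetraspanin, had 1237 and 1484 in normoglycemic against 360.5 and 516 in diabetic fat, and Cmc1, of cytochrome oxidase assembly, had 2936 and 2676 in normoglycemic against 857 and 1013 in diabetic fat. Acyp1, an acylphosphatase, had 1013 and 1145 in normoglycemic against 277 and 367 in diabetic fat. Btf3l4, a relative of a basal transcription factor, had 3255 and 2078 in normoglycemic against 649.8 and 618 in diabetic fat. Their differences ran from −1.49 for Cd9 to −1.92 for Btf3l4, and that of Btf3l4 was 1.64 with the beta-actin ratio as a covariate. Among higher genes outside the groups, the adhesion molecule Alcam had 259 and 516 in normoglycemic against 3479 and 1964 in diabetic fat, a difference of 2.60 ± 0.43, with 1 of 4 other probe sets opposite. The secreted ribonuclease Rnase4 had 3748 and 3286 in normoglycemic against 10639 and 12369.7 in diabetic fat and the growth factor binder Igfbp5 had 2332 and 2364 in normoglycemic against 9894 and 7701 in diabetic fat, though the other probe set of Igfbp5 was opposite and its difference was −0.067 with the beta-actin ratio as a covariate. Sdc1, a cell surface proteoglycan that is also in the B and plasma cell list, had 193 and 343 in normoglycemic against 1074 and 1047 in diabetic fat. Sned1, a matrix protein, was weak in normoglycemic fat, with 77.3 and 107 in normoglycemic against 499 and 737 in diabetic fat. Bace1, the beta-secretase, had 225 and 519.7 in normoglycemic against 1603 and 1308 in diabetic fat, and the histone demethylase Kdm2a had 490.0 and 491 in normoglycemic against 1549.5 and 1600.0 in diabetic fat with 1 of 3 other probe sets opposite. For Gpam, Me1, Scd1, Lpl, Gabarapl2 and Gsta3 the only other probe set also differed the opposite way from the value given, as did both other probe sets of Ggps1. Over all genes, among 5474 genes with several, every probe set had the same direction in 47% and, among the 643 of these at an unadjusted p under 0.05, in 61%.

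**Figure D5:**
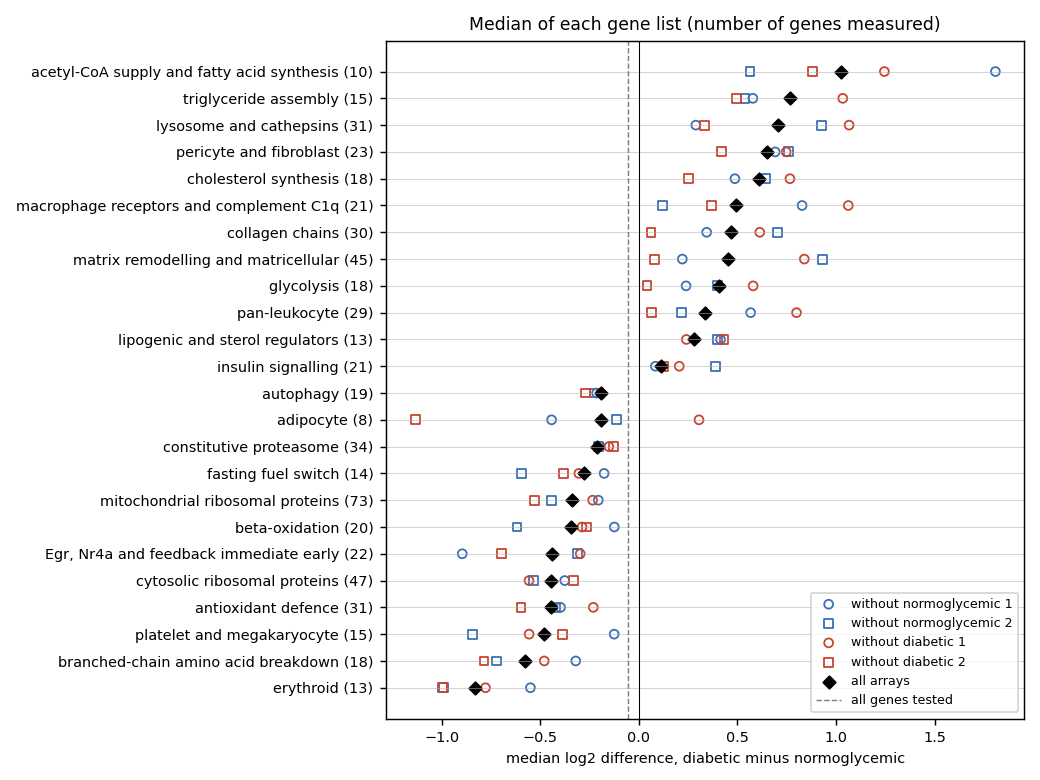
Median log2 difference (diabetic minus normoglycemic) of 24 gene lists over all arrays (black diamonds) and with 1 of the 4 arrays left out (open symbols), with the number of measured genes in brackets; the dashed line is the median of all genes tested. The medians run from −0.83 for erythroid genes to 1.02 for acetyl-CoA and fatty acid enzymes, and of these 24 lists the fat cell list alone changes sign when 1 array is left out.

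Gene groups often studied in diabetic fat showed no common direction here. Type I interferon-stimulated genes were higher in 15 of 26 cases, chemokines and their receptors in 16 of 33, cytokine and NF-kB signalling genes in 14 of 25, brown and beige fat genes in 5 of 10 and circadian clock genes in 8 of 17. Within these lists the number at an unadjusted p under 0.05 was 2 higher and 1 lower for interferon, 5 and 0 for chemokines, and 0 in either direction for cytokine signalling and brown fat genes. Endothelial genes were higher in 24 of 26 cases, but their median was −0.59 without normoglycemic 1 and 1.78 without normoglycemic 2. Of the serpins, the family of AAT itself, 12 of 18 were higher; the liver-type AAT gene Serpina1b had 30.0 and 231 in normoglycemic against 683 and 1438 in diabetic fat, and its near-identical copies make the source of that signal uncertain.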

How the data were processed

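RNA from fat was labelled by the single-cycle biotin protocol and hybridised to Affymetrix mouse arrays, per the labels' protocols. Each deposited file column is a linear intensity for 45101 probe sets; the authors computed it with MAS5, per the submitters' processing notes, and its version is not given in the sources used here. This method corrects and scales each array on its own, so values are relative to the total signal of an array. Apart from 64 control probe sets, 34945 had 1 symbol in the platform annotation, 932 had several and 9160 had none; the last 2 kinds were left out. Of those with 1 symbol 34741 matched the RefSeq gene table. Signals were taken as log2(signal + 75), 75 being the 25th percentile of the deposited values. Those whose mean exceeded 164, the 40th percentile, were kept, and the brightest stood for its gene.

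A fit of 3 group means over all 6 arrays (limma 3.58.1 in R 4.3.3, eBayes with trend, 3 residual and 5.37 prior degrees of freedom) gave the contrast of diabetic minus normoglycemic, 2-sided, with Benjamini-Hochberg adjustment over 13058 genes. The number of arrays limits the precision. Named genes are the 15 per direction with the smallest p whose groups do not overlap, up to 6 members of a described list with the smallest p, and 16 genes named by the design: Slc2a4, Insr, Irs1, Irs2, Adipoq, Lep, Pparg, Fasn, Scd1, Lpl, Pdk4, Pck1, Tnf, Il6, Ccl2 and Serpina3n. Tnf, Il6 and Ccl2 lay under the filter. The 71 gene lists and the members were chosen with earlier results of these data known; some lists share genes. Lists are described by counts and medians. Alternatives covered scaling, pseudocount, signal filter, probe set choice, variance model (statmod 1.5.0 for the robust one), arrays included, a replicate block, and the beta-actin ratio and the hybridisation control signal as covariates. Promoter sequences are those of the RefSeq table, GRCm38.p6.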

Additional observations from a re-analysis of the deposited data

How the results depend on the processing

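The limma comparison called 0 genes at an adjusted p under 0.05 (1291 at an unadjusted p under 0.05) and also called 0 under 17 of 18 alternatives. With the hybridisation control signal as a covariate it called 1, and 722 genes were at an unadjusted p under 0.05, 374 higher and 348 lower. Median scaling left 375 lower genes. A replicate block was tried because titles share numbers. The deviations of same-numbered normoglycemic and diabetic arrays correlated at 0.0754, so the numbers were not taken to pair the samples, and the block gave 0 calls, 393 lower genes and 877 of the 1291 genes. With the beta-actin 3'/5' ratio as a covariate the list medians were 3.21 for acetyl-CoA supply and fatty acid synthesis, 0.39 for lipogenic and sterol regulators, −0.75 for triglyceride assembly, 0.31 for cholesterol synthesis, −0.40 for insulin signalling, 0.078 for glycolysis, 0.0015 for fasting fuel switch, 0.37 for beta-oxidation, 0.65 for branched-chain amino acid breakdown, 0.053 for antioxidant defence, −1.47 for immediate early genes, 0.15 for macrophage receptors and complement C1q, 1.44 for pan-leukocyte, −1.76 for lysosome and cathepsins, 1.25 for platelet and megakaryocyte, −0.24 for pericyte and fibroblast, −1.17 for matrix remodelling and matricellular, 1.49 for cytosolic ribosomal proteins, 0.75 for mitochondrial ribosomal proteins, 0.015 for constitutive proteasome, 0.38 for autophagy and −2.27 for adipocyte. The same setting gave differences of −0.067 for Igfbp5, 0.50 for Mycl, 2.48 for Net1, 0.62 for Etfa, 1.64 for Btf3l4, −3.82 for Insr, 1.78 for Irs1, −4.87 for Irs2, −13.49 for Lep, −2.53 for Lpl, 0.37 for Scd1, −5.89 for Serpina3n and −2.27 for Slc2a4. With the hybridisation control signal as a covariate the list medians were 1.76 for acetyl-CoA supply and fatty acid synthesis, 0.45 for triglyceride assembly, −0.14 for beta-oxidation, −0.22 for antioxidant defence, −0.43 for erythroid, −0.13 for platelet and megakaryocyte, −0.17 for cytosolic ribosomal proteins, −0.12 for mitochondrial ribosomal proteins and −0.095 for autophagy. The same setting gave differences of 0.30 for Irs1, −0.31 for Irs2, −0.41 for Lep and −0.095 for Lpl. After median scaling the list medians were 0.40 for lipogenic and sterol regulators, 0.24 for insulin signalling, −0.16 for fasting fuel switch, −0.70 for erythroid, −0.30 for cytosolic ribosomal proteins, −0.079 for constitutive proteasome and −0.067 for autophagy. The same setting gave a difference of 0.11 for Irs1. After quantile normalization the list medians were −0.29 for cytosolic ribosomal proteins and −0.26 for constitutive proteasome. The same setting gave a difference of 0.24 for Scd1. With the mean of all kept probe sets the list medians were 0.49 for acetyl-CoA supply and fatty acid synthesis, 0.017 for fasting fuel switch and −0.34 for constitutive proteasome. The same setting gave a difference of 0.25 for Gpaa1. With a pseudocount of 1 the list median was −0.99 for erythroid. The same setting gave a difference of −0.42 for Lep. With the filter at the 60th percentile the list median was −1.22 for erythroid. Leaving out 1 of the 6 arrays gave 554 to 1941 genes at an unadjusted p under 0.05, 319 to 1196 higher, 235 to 745 lower. The same gave medians of 0.56 to 1.81 for acetyl-CoA supply and fatty acid synthesis, 0.24 to 0.43 for lipogenic and sterol regulators, 0.49 to 1.03 for triglyceride assembly, 0.25 to 0.77 for cholesterol synthesis, 0.084 to 0.39 for insulin signalling, 0.041 to 0.58 for glycolysis, −0.60 to −0.18 for fasting fuel switch, −0.62 to −0.12 for beta-oxidation, −0.60 to −0.23 for antioxidant defence, −0.90 to −0.30 for immediate early genes, 0.12 to 1.06 for macrophage receptors and complement C1q, 0.065 to 0.80 for pan-leukocyte, 0.29 to 1.07 for lysosome and cathepsins, −0.998 to −0.55 for erythroid, −0.84 to −0.13 for platelet and megakaryocyte, 0.061 to 0.70 for collagen chains, −0.53 to −0.21 for mitochondrial ribosomal proteins, −0.21 to −0.13 for constitutive proteasome and −1.14 to 0.30 for adipocyte. Named genes that changed sign ran from −1.16 to 0.12 for Adipoq, −0.19 to 0.15 for Irs1, −2.85 to 3.81 for Lep, −0.23 to 0.49 for Lpl, −0.72 to 0.0077 for Scd1 and −1.10 to 2.0 for Serpina3n. Apart from the values above, the cause of these moves was not tested, and the covariate fits rest on differences within 3 pairs of arrays. With 2 arrays per group an exact permutation test could not give a p below 0.333, and none was run.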
